A study of Mus musculus with 4 samples.

Results

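The S100 family was examined in whole skin of newborn mice lacking loricrin and of wildtype mice. The set comprised 10 genes, S100a1, S100a4, S100a6, S100a8, S100a9, S100a10, S100a11, S100a13, S100a14 and S100a16. Members were taken by name: each probe set whose platform annotation gives exactly one of these symbols was included, whatever its signal. This gave 17 probe sets of 9 genes, among 13674 genes named on the arrays. The first array type carried 16 of them and the second carried 1, for S100a10. S100a11 had no probe set of its own, because the one that detects it also names a pseudogene and a predicted gene.

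The knockout group was labelled loricrin knockout and the control group wildtype. Both were of strain FVB/N and both were sampled as whole skin at P0 (postnatal day 0). Each group had 2 arrays, 1 on each of 2 Affymetrix types with different probe sets. The second array of a group is labelled a replicate, but it shares only some genes with the first, and whether it held RNA of another animal is not given in the sources used here. The allele, the number of animals per array and their sex are not given there either. Nothing below therefore measures the spread between animals. In whole skin, fewer cells of a type and less RNA per cell cannot be told apart.

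S100 proteins are small proteins with paired EF-hand loops, through which most of them bind calcium, and mostly act as dimers. On binding calcium, most expose a surface that docks onto partners such as annexins, though this does not hold for every member. Some S100 proteins are released from stressed cells as alarmins that act on the receptors Ager and Tlr4. In skin the family is known from keratinocytes, neutrophils, macrophages and fibroblasts, and several members rise in wounds and in inflamed epidermis. Many of the genes sit next to the epidermal differentiation complex, which also holds loricrin. In the RefSeq gene order, S100a1, S100a13, S100a14 and S100a16 are consecutive coding genes, and S100a9 lies 6 coding genes before loricrin. S100a11 and S100a10 lie on the far side, 51 and 52 coding genes beyond it.

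Start regions from RefSeq (build GRCm38.p6, chromosome 3, plus strand) are shown for members whose signals are described below. The RefSeq promoter table held 9 windows of 300 bases for 8 of the 10 members, all but S100a10 and S100a14. S100a1 and S100a13 are transcribed away from each other, and only 104 bases separate their annotated starts (chr3:90514331-90514434). For S100a4 (chr3:90603520-90603769) and S100a6 (chr3:90612644-90612893) the 250 bases before the start are given. Capitals mark a match to TATAAA (a core promoter motif), TGANTCA (the AP-1 motif) or GGGCGG (the Sp1 motif), searched on both strands.
S100a1 to S100a13: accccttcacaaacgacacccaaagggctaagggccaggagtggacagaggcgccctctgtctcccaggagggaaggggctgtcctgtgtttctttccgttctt
S100a4: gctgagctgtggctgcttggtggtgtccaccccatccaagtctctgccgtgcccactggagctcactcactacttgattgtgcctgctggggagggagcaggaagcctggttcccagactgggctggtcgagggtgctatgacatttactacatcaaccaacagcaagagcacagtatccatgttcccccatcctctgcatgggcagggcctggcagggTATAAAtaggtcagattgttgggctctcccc
S100a6: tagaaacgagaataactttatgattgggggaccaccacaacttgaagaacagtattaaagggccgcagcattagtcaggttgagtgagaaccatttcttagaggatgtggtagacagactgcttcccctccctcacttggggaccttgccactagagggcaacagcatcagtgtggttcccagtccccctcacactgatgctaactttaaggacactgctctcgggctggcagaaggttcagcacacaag
The stretch shared by S100a1 and S100a13 and the stretch of S100a6 held none of these letters, and S100a4 held TATAAA, starting 31 bases before its start. Over whole windows TATAAA was found for S100a4, S100a8 and S100a9, and in 13.6% of 32851 windows of all genes. The S100a8 match began 30 bases before the start, and the S100a9 match at the start itself. TGANTCA was found for S100a11 and S100a16 (7.81% of all windows), and GGGCGG for S100a9, S100a11 and S100a16 (35.7% of all windows).

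Signals are in arbitrary units and cannot be compared between probe sets. Summed signals of a marker list, given below, are therefore weighted towards its bright probe sets. Such sums include signals below the floor and do not measure the RNA of a cell type. A floor was set at 77.6 for the first type and 133 for the second, the mean of the 40th percentiles of that type's arrays, and lower signals were raised to it before a ratio was taken. Loricrin itself read 2013 in knockout skin and 41224 in wildtype skin on its brighter probe set, a log2 ratio of -4.36. Sex-linked transcripts differed between the arrays as well. Xist read 857 in knockout skin and 24.7 in wildtype skin, and the Y-linked Eif2s3y 42.7 and 1071, so sex and genotype cannot be told apart in any value below. The labelled tissue was borne out by Krt1 (18714 and 26636) and Krt10 (18480 and 25556), keratins of differentiated epidermis, while the probe sets of the basal keratins Krt5 and Krt14 were below the floor on both arrays.

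No S100 ratio that could be taken reached 2-fold between the genotypes. Of the 16 probe sets on the first type, 12 had a signal above the floor on at least 1 array, 10 of them on both, and 4 lay below it on both. The 4 could not be compared. None of the 12 ratios reached 2-fold in either direction, though 2 of them, for S100a8 and S100a14 (104594_at), are bounds that could be larger. Among all 7904 probe sets above the floor in at least 1 array, 1.37% were that much higher in knockout and 1.91% that much lower. At 1.5-fold, 1 was higher (6.45% of all) and 2 were lower (7.38% of all). These were a probe set of S100a13 (higher), S100a4 and the brightest probe set of S100a10 (both lower). Their median log2 ratio was -0.17, with 7 negative and 5 positive, beside a median of 0.01 over all 7904. All 13 ratios, the second type's included, lay within the middle 95% of ratios of probe sets whose mean log2 signal was within 0.5 of theirs.

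**Figure D1:**
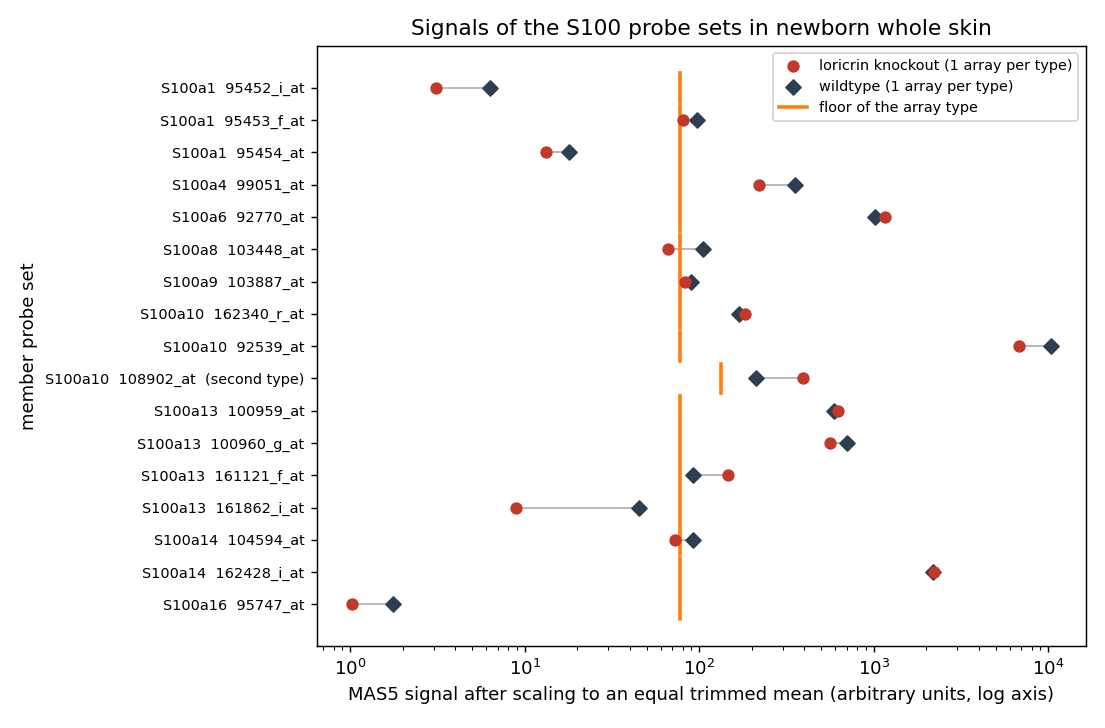
MAS5 signal (arbitrary units, log axis) of each of the 17 S100 probe sets on the knockout (red circle) and wildtype (dark diamond) array of its type, 1 array per genotype and type, with no error bars because there are no replicates within a type. The orange line is the floor (77.6 for the first type, 133 for the second). Wherever both signals are above the floor they lie within 2-fold of each other, and the 2 widest gaps, on S100a13 (8.83 and 45.1) and S100a1 (3.10 and 6.29), are below it.

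The inflammatory members, S100a8 and S100a9, were read close to the floor. They form the heterodimer calprotectin, which neutrophils store in quantity and which keratinocytes make when stressed. S100a8 read 66.1 in knockout, below the floor, and 105 in wildtype, which is at least 1.36-fold lower in knockout. S100a9 read 83.2 and 89.0, a log2 ratio of -0.10 that was negative in 6 of 9 settings. Neither probe set read far above the floor on either array, which does not measure how much calprotectin RNA was present. S100a9 was within 2-fold, while the S100a8 ratio is a bound with no upper limit at this floor. With the floor at the 20th percentile, 20.1 for the first type, both S100a8 signals were above it and the log2 ratio was -0.67. Few neutrophil and granulocyte markers could be measured. Of 14 on the first type, 10 lay below the floor on both arrays, among them Mpo, Itgam, Ngp and Mmp9. Of the 4 measured, only Camp, an antimicrobial peptide of granules, passed 2-fold, reading 169 in wildtype and below the floor in knockout, at least 2.17-fold lower, where 1.91% of all probe sets were 2-fold lower or more. The other three, named after their values were seen, did not share a direction. Elane read 103 and 192, Lcn2 190 and 201, and Csf3r, the receptor for granulocyte colony-stimulating factor, 492 and 317. The summed signal of the 14, to which Csf3r gave the largest part, was 1047 in knockout and 1130 in wildtype.

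The receptors of released S100 proteins showed no 2-fold difference either. Ager was below the floor on both arrays of the first type, and Tlr4 read 220 in knockout skin and 175 in wildtype skin on the second. Basigin (Bsg) and neuroplastin (Nptn), which bind S100a9 and S100a8, had log2 ratios of 0.10 and 0.05 on the first type. In all, 2 receptors were measured on the first type and 1 on the other, and none passed 2-fold.

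S100a10, the light chain that binds annexin A2 and carries membrane proteins to the cell surface, gave different answers on its 3 probe sets. The brightest (92539_at, first type) read 6777 in knockout skin and 10284 in wildtype skin, 1.52-fold lower in knockout. The second probe set on that type (162340_r_at) read 182 and 169, 1.08-fold higher. On the second type 108902_at read 390 and 211, 1.85-fold higher. The knockout array was thus the dimmer one for the brightest probe set and the brighter one for the other two.

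The second type carried no other member. At 2-fold its background was 2.26% of 8142 probe sets higher and 2.8% lower. At 1.5-fold, which S100a10 passed there, it was 9.27% higher and 10.6% lower. S100a10 was also the only member on both types and so the only one with a repeated comparison. Averaged over the types, the log2 ratio of S100a10 came to 0.14 with an SE of 0.30 (adjusted p = 0.932 by limma, higher on 1 of 2 types), from a fit over 1082 genes of which 1, or 0.0924%, had an adjusted p under 0.05. The estimate is smaller than its error. Its ratios on the types, -0.60 and 0.88, were 1.49 apart, and 17 of the 1082 genes, or 1.57%, had a gap at least that wide.

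At the brightest end of the first type, ratios below 0 were common. Around the brightest S100a10 probe set, 164 others lay within 0.5 in mean log2 signal. Their median log2 ratio was -0.20 and their middle 95% ran from -0.74 to 0.39, so the value of S100a10, -0.60, was inside this range. It was -0.41 under quantile normalization and -0.40 under loess, scalings that follow the signal. The probe set that names S100a11 with other genes, given here because S100a11 has none of its own, read 10906 in knockout skin and 14701 in wildtype skin, a log2 ratio of -0.43. That value was -0.14 under quantile normalization and -0.15 under loess.

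**Figure D2:**
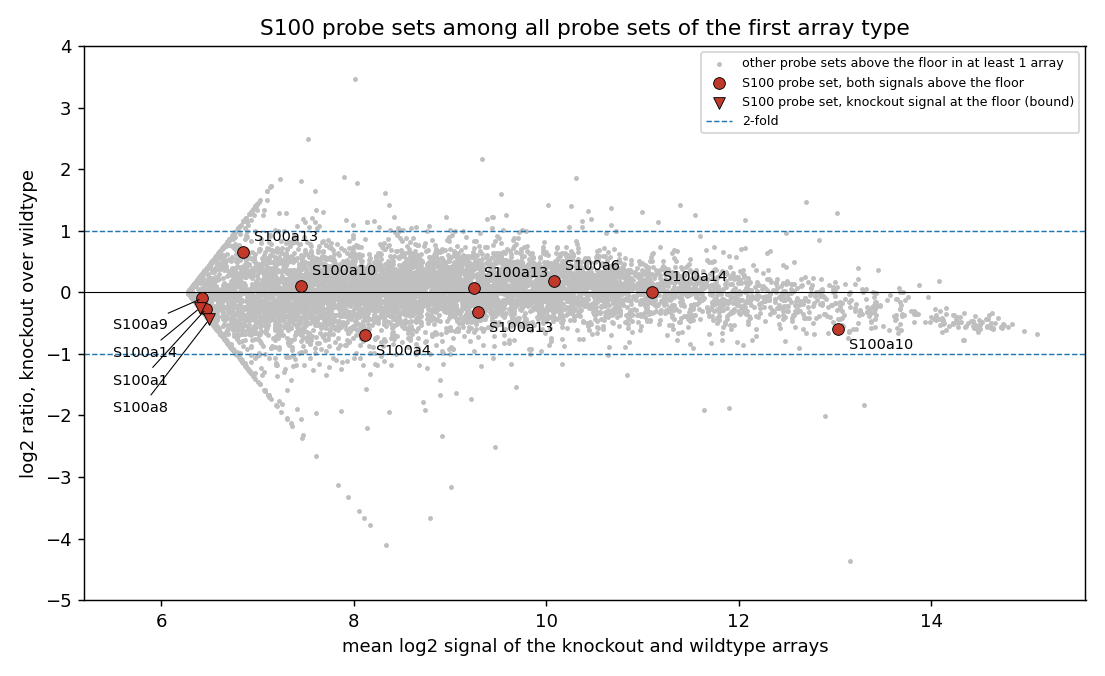
Log2 ratio of knockout over wildtype against mean log2 signal for all 7904 probe sets of the first array type above the floor on at least 1 array (grey) and the 12 S100 probe sets among them (red, triangles where the knockout signal is at the floor and the ratio is a bound). All 12 lie between the dashed 2-fold lines, and S100a10 at the bright end has a log2 ratio of -0.60 where the grey points also lie mostly below 0.

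Binding partners of the family were compared next. Of 8 measured on the first type, none passed 2-fold, and their median log2 ratio was -0.31. Annexin A1 (Anxa1), the partner of S100a11, read 10202 and 16166, 1.58-fold lower in knockout. Annexin A2 (Anxa2), the partner of S100a10, read 13013 and 16534, 1.27-fold lower, and Ahnak, a scaffold that S100a10 and annexin A2 hold at the membrane, 1.24-fold lower. All 3 are bright, and under quantile normalization Anxa1 stood at -0.38 and Anxa2 at -0.02. On the second type 1 of 4 passed, where 2.26% of all probe sets were 2-fold higher or more. This was Kcnk3, a potassium channel that binds S100a10. It read 598 in knockout skin and 156 in wildtype skin, 3.83-fold higher, but another Kcnk3 probe set on the first type was below the floor on both arrays.

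S100a4 had the largest ratio below 0 among members measured on both arrays. It binds nonmuscle myosin and is abundant in fibroblasts, macrophages and dendritic cells. It read 218 in knockout skin and 354 in wildtype skin, 1.62-fold lower in knockout with a log2 ratio of -0.70. Its ratio was -0.70 under quantile normalization and -0.71 under loess. Probe sets of similar signal had a middle 95% from -0.86 to 0.77. Its partner Myh9, the heavy chain of nonmuscle myosin, went the other way, with 2408 in knockout and 1737 in wildtype.

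Many fibroblast markers were lower on the same knockout array. Of 11 measured, 8 were at least 2-fold lower, beside 1.91% of all probe sets, and none was 2-fold higher. Their median log2 ratio was -1.96, and their summed signal was 4982 in knockout and 10998 in wildtype. Col1a1 read 172 against 1545, and Col3a1 was at least 12.6-fold lower. The 3 that did not pass, named after their values were seen, were Col1a2 (1082 and 1076), Dcn (2462 and 2556) and Pdgfra (200.3 and 139). Erythroid markers were lower on that array too. All 3 measured were at least 2-fold lower, beside the same 1.91%, with a median log2 ratio of -1.92. Hba-a1, an alpha globin, read 3792 and 15206. None of 11 macrophage markers passed 2-fold, with a median of 0.12 and summed signals of 7527 and 7963. The part of any of these cell types in the S100a4 value was not tested.

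S100a6 (calcyclin), which is expressed in fibroblasts and proliferating epithelial cells, read 1154 in knockout skin and 1015 in wildtype skin, a log2 ratio of 0.18. The arrays differed by 1.14-fold, and under other scalings and floors the log2 ratio stayed above 0, from 0.12 to 0.87. Its partner Cacybp, the calcyclin-binding protein, read 401 and 495. S100a4 and S100a6 are separated only by S100a5 on the chromosome, and their ratios had opposite signs. On the same knockout array, 4 of 5 measured markers of basal keratinocytes passed 2-fold, all higher in knockout. Of all probe sets, 1.37% were 2-fold higher or more. Summed signals over all 8 markers were 5754 in knockout and 2719 in wildtype. Itga6, an integrin that anchors basal cells, was 3.06-fold higher and Col17a1, a hemidesmosome collagen, 2.68-fold. Itgb4 (536 and 521), and Krt15 on the second type (26582 and 22304), did not pass. Both were named after their values were seen. Fibroblast markers on that array went the other way, with 8 of 11 measured at least 2-fold lower, beside 1.91% of all probe sets. The part of basal keratinocytes or of fibroblasts in the S100a6 value was not tested.

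S100a13, which takes part in the release of Fgf1 and interleukin 1 alpha from cells, had 4 probe sets that did not share a direction. The probe set 100959_at read 620 in knockout skin and 593 in wildtype skin, and 100960_g_at read 560 and 701. Both are designed on the same GenBank record, and their log2 ratios were 0.07 and -0.32. The probe set 161121_f_at read 145 and 92.2, 1.57-fold higher, and 161862_i_at was below the floor with 8.83 and 45.1. The log2 ratios of the 3 measured probe sets thus ran from -0.32 to 0.65. The last of these ranged from 0.39 to 1.22 over the 9 settings that gave it a value. With the floor at the 60th percentile it had none. On the wildtype array 161121_f_at read close to the floor of 77.6, and its suffix marks shared or relaxed probe selection. Of the cargo proteins, Fgf1 was below the floor on both arrays and Il1a read 806 in knockout and 931 in wildtype.

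S100a1, known from striated muscle where it acts on calcium release, shares its start region with S100a13 as shown above but was barely measurable. The probe set 95453_f_at read 80.9 in knockout skin and 97.1 in wildtype skin, just above the floor, with a log2 ratio of -0.26. Its suffix also marks shared or relaxed probe selection. The other 2 probe sets were below the floor, with 3.10 and 6.29 on 95452_i_at and 13.2 and 17.9 on 95454_at. Only 2 of 9 skeletal muscle markers were measured on the first type, and neither passed 2-fold. Their summed signals were 425 and 542 over all 9.

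S100a14 and S100a16, members of epithelial cells that are thought to bind calcium weakly, gave the most even reading and one below the floor. S100a14 read 2201 in knockout skin and 2181 in wildtype skin on 162428_i_at, a log2 ratio of 0.01 and the smallest of any member. Its other probe set, 104594_at, read 72.6 and 92.4, at least 1.19-fold lower in knockout. With the floor at the 20th percentile, below both signals, the log2 ratio of 104594_at was -0.35. S100a16 read 1.02 and 1.75, far below the floor, and could not be compared. The markers of differentiated keratinocytes gave no 2-fold difference among 6 measured on the first type, with a median log2 ratio of -0.49 and summed signals of 68728 in knockout and 95547 in wildtype. These are bright probe sets, and under quantile normalization Krt1 moved from -0.51 to 0.03 and Krt10 from -0.47 to 0.05. Their part in the values of S100a10 and S100a14 was not tested.

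S100 genes outside the set were few. On the first type S100a3, a protein of the hair cuticle, read 208 in knockout and 310 in wildtype with its brighter probe set, 1.49-fold lower. Its dimmer probe set read 77.1 and 124, at least 1.59-fold lower. S100a5 was at least 1.35-fold lower, and S100b, a marker of Schwann cells and melanocytes, and S100g were below the floor on both arrays. None passed 2-fold. Of 3 measured hair shaft markers on that type, 1 was higher and 1 lower past 2-fold, beside 1.37% and 1.91% of all probe sets. On the second type S100a2, named after its value was seen, read 276 and 354.

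Proteins that fuse an S100 domain to a long repeat are made in the granular layer and in hair and tongue. The first type measured 3 of them and the second 1, and none passed 2-fold. Filaggrin (Flg), which bundles keratin, read 17219 in knockout and 22620 in wildtype. Its log2 ratio of -0.39 was 0.09 under quantile normalization, -0.03 under loess and 0.29 under spike-in scaling. Repetin (Rptn), an envelope precursor, read 1488 and 1001, 1.49-fold higher. Calcium binders with EF-hands outside the family gave no 2-fold difference among 8 measured on the first type, with a median log2 ratio of -0.15, nor among 3 on the second. The brightest was Calm4, a calmodulin-like protein of differentiating keratinocytes, with 27556 and 44307, a log2 ratio of -0.69 that was -0.22 under loess. Its probe set was the brightest of all on each first-type array. Quantile normalization sets the brightest values of the arrays equal, so its ratio of 0 there was fixed in advance.

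Neighbours of the S100 genes on the chromosome were compared as well. Within 3 coding genes of either end of a run of S100 genes, or between them, 5 genes were measured on the first type, and none passed 2-fold. Their median log2 ratio was 0.26. Among these 5 were Rptn and Tchh, also counted above as proteins with a fused S100 domain. Rptn had a log2 ratio of 0.57 and Tchh one of -0.10. Ilf2 (432 and 312) and Chtop (1640 and 1367), which lie just before S100a1, had higher signals in knockout, and Snapin (771 and 926), between them, had a lower one.

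Spike-in scaling shifted all ratios upwards together. It sets 9 bacterial control probe sets equal, and raised the median log2 ratio of all first-type probe sets from 0.01 to 0.66. Under it 11 of the 12 S100 ratios were positive, where 5 were before, and their median was 0.40, still below that of all probe sets. S100a4 then stood at -0.01, S100a6 at 0.87 and the brightest S100a10 probe set at 0.09. The S100a10 probe set of the second type reached 1.53 and the S100a13 probe set 161121_f_at 1.22, both past 2-fold. Under quantile normalization 7 of the 12 were negative and under loess 8. Apart from spike-in scaling, 3 of the 13 probe sets of both types changed sign in any setting, those of S100a9, S100a13 (100959_at) and S100a14 (162428_i_at), all with ratios near 0. A direction given above thus compares a member with the bulk of probe sets on its array.

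**Figure D3:**
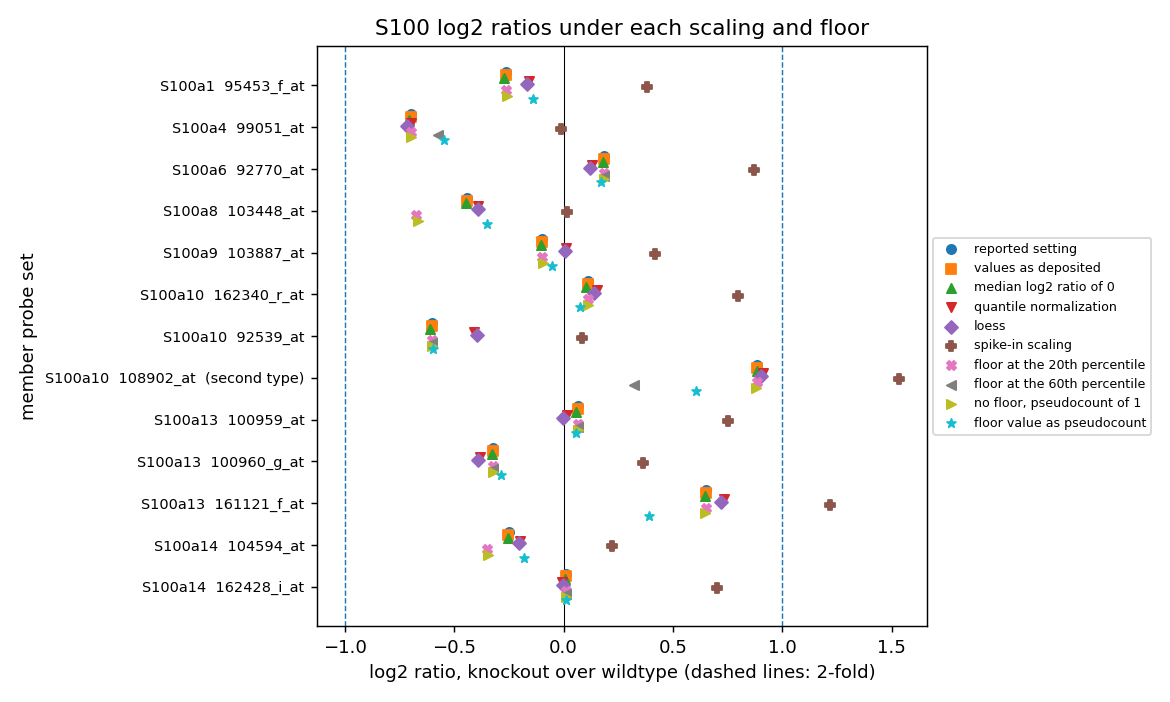
Log2 ratio of knockout over wildtype for each of the 13 S100 probe sets above the floor on at least 1 array, under the reported setting and 9 other scalings and floors (1 symbol per setting, dashed lines at 2-fold). Spike-in scaling moves every probe set to the right, taking S100a10 on the second type to 1.53 and 1 S100a13 probe set to 1.22, while the other settings keep all 13 between the dashed lines.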

How the data were processed

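Total RNA from P0 whole skin was labelled with biotin and measured on 4 arrays, per the labels. The values are the authors' deposited intensity values, 1 linear signal per probe set. The submitters' processing notes name MAS5. The sources used here give no version, scaling target, detection call or filter. The columns' 2% trimmed means lay between 500.2 and 500.4, and each type's 2 arrays were set equal on it. The number of arrays limits the precision. After removal of 66 control probe sets, 12422 and 12411 remained, of which 10833 and 10581 name 1 gene. Symbols of genes other than members were updated by gene ID through a RefSeq table (10817 and 10550 matched).

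With 1 array per genotype and type there is no replicate and no test within a type, so probe sets were counted at 2-fold or more. A gene took its probe set of highest mean signal. Genes with a mean log2 signal over the floor on each type entered limma 3.58.1 (R 4.3.3, Benjamini-Hochberg adjustment) with array type as a block. It leaves 1 residual degree of freedom per gene against 15.4 from the prior, so p-values rest mostly on variance pooled over genes. The steps were tested on simulated data. For the steps within a type, changes past 2-fold were planted only in probe sets above the median wildtype signal. Members near the floor or with smaller ratios are not covered by that.

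The members, lists and rules were chosen with earlier results of these data known. All member probe sets are described. From related lists the text names up to 4 members past 2-fold, or the 2 of highest mean signal where none passed, with others named after their values were seen for their tie to a member. Alternatives covered scaling, floor, fold, probe set suffix (7 of the 17 carry one marking shared or relaxed probe selection), value per gene and block.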

Additional observations from a re-analysis of the deposited data

How the results depend on the processing

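None of the 12 first-type S100 probe sets passed 2-fold under any scaling or floor except spike-in scaling (1, S100a13) and the floor at the 20th percentile (1, a further S100a13 probe set at -1.17 or lower, and at -2.23 with no floor and a pseudocount of 1). At 1.5-fold 3 first-type probe sets and the 1 of the second type passed, and spike-in scaling took the latter 1 past 2-fold as well. The first-type median, -0.17, moved by more than the typical absolute ratio, 0.25, under spike-in scaling, to 0.40. It was -0.26 at a floor of the 20th percentile and -0.25 with plain probe sets only. The second-type value, that of S100a10, was 1.53 when scaled to the spike-ins and fell to 0.32 at a floor of the 60th percentile. Of 111 member ratios recomputed under 9 alternatives, 96 stayed within the typical absolute ratio of their type, and 13 of the 15 that did not were under spike-in scaling. Of 13 probe sets, 5 kept their sign in every setting that gave a value, and 10 did apart from spike-in scaling, which shifts all ratios up.

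The mean of S100a10 over both types ran from 0.003 to 0.81 over 12 fits, with limma adjusted p from 0.0810 to 0.9995. The lowest p was under spike-in scaling and the highest without the block. With the floor at the 60th percentile it could not be fitted. Leaving out either type gave -0.60 and 0.88, with no test. Counts over all probe sets moved with both floor and scaling. On the first type 434 were higher and 700 lower with it at the 20th percentile, and 40 and 40 at the 60th. Spike-in scaling gave 1432 higher and 51 lower, 96.6% higher in place of 41.7%. S100a1, S100a8 and S100a9 were read near the floor, where ratios are bounded or imprecise, and S100a16 below it.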
